A study of Rattus norvegicus with 6 samples.

Results

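The glucocorticoid receptor gene Nr3c1 and 4 genes that the receptor is known to switch on, Sgk1, Dusp1, Fkbp5 and Pdk4, were followed in femur RNA of Wistar rats after chronic sleep deprivation. They were chosen by gene ID, with earlier results of these data known, and are 5 of the 32545 genes in the count table. The IDs are ENSRNOG00000014096 for Nr3c1, ENSRNOG00000011815 for Sgk1, ENSRNOG00000003977 for Dusp1, ENSRNOG00000022523 for Fkbp5 and ENSRNOG00000009565 for Pdk4. All 5 IDs are in the table. The pairs of ID and symbol are those the genes were chosen by. The rat gene table used here holds all 5 symbols but gives an Ensembl ID for 0 of its 47357 genes, so the pairs were not checked against an annotation.

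Polyadenylated RNA was sequenced from 3 control libraries and 3 libraries of rats under chronic sleep deprivation (CSD), all Wistar, an outbred laboratory strain, with no allele or other agent given for either group. The labels do not say whether each library is a separate animal, so p-values measure the spread between libraries, which may in part be technical. Labelled ages were 12, 13 and 14 weeks in controls 1, 2 and 3 and 15, 16 and 17 weeks in CSD 1, 2 and 3, whereas the series text gives 12 weeks for all. The labelled ages rise by exactly 1 week from each library to the next, and whether they are true ages is not known. As labelled, CSD and labelled age cannot be told apart. Libraries held 8366443 to 9572898 reads in genes, which is 36.2% to 38.2% of the reads in the table. No source used here says which part of the bone was taken or whether marrow was removed, and the femur label was not checked against marker genes, since the IDs carry no names.

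Glucocorticoids, corticosterone in the rat, are released by the adrenal gland under stress and bind the receptor that Nr3c1 encodes. The receptor is held in the cytoplasm by chaperones, moves to the nucleus once it has bound hormone, and binds DNA near its target genes. Many cells lower their receptor level under lasting hormone exposure, and lasting excess of glucocorticoid lowers bone formation. Fkbp5 encodes a co-chaperone that lowers the hormone affinity of the receptor, and so forms a feedback loop. Sgk1 encodes a kinase related to AKT that is activated through the PI3K pathway. Dusp1 encodes a phosphatase that switches off MAP kinases and is also induced within minutes by handling, growth factors and cell stress. Pdk4 encodes a kinase that shuts down pyruvate dehydrogenase and so moves a cell from glucose to fat as its fuel, in fasting as well as under glucocorticoid.

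The DNA just before the start sites of the 4 targets is shown as the place where a promoter motif common to receptor targets could lie. Each line gives the 250 bases before a start site of RefSeq, 5′ to 3′. For Sgk1, which has 3 such windows in the table, the one nearest the gene's end is given. Capitals mark TGACGTCA (the cyclic AMP response element), CACGTG (the E-box), TATAAA (the TATA box) and CCAAT, or their reverse complements.
Dusp1 (GRCr8, chr10:17184603-17184852, plus strand): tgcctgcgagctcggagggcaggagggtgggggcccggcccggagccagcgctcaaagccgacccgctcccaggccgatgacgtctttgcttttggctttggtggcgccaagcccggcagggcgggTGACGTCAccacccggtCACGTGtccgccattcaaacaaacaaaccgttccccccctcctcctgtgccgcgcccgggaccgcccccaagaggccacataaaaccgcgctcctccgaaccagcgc
Sgk1 (GRCr8, chr1:24804832-24805081, minus strand): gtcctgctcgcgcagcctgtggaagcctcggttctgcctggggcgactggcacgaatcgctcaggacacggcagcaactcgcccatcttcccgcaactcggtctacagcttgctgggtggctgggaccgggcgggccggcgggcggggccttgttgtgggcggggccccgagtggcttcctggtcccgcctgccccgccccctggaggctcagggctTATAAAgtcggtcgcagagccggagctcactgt
Fkbp5 (GRCr8, chr20:6543556-6543805, minus strand): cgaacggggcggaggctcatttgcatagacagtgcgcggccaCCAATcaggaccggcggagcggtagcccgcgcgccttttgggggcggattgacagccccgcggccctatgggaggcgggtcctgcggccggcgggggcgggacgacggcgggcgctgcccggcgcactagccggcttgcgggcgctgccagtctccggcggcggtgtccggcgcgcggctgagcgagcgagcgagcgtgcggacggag
Pdk4 (GRCr8, chr4:34568330-34568579, minus strand): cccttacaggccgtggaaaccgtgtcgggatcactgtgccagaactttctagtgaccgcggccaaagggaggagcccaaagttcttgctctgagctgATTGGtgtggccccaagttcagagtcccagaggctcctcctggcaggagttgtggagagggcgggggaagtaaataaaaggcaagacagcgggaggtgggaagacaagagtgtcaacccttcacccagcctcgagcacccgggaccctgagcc

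The Dusp1 window held TGACGTCA, which 1.59% of all 33469 RefSeq windows of this length hold, and CACGTG, which 5.59% hold. The Sgk1 window held TATAAA (12.9% of all windows), and those of Fkbp5 and Pdk4 each held CCAAT (34.0%). The palindromic receptor site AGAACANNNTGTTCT was in none of the 8 windows of the 5 genes and in 4 of all windows. Its shorter part AGAACA was in none of the 8 either, and in 17.5% of all windows. GGGCGG (the GC box, left in lower case) was in all 4 printed windows and in 30.5% of all windows. Of the 8 windows, only the Sgk1 window with a GC content of 39.2% held none. GTAAACA, a FOXO site, was in none of the 8 and in 3.21% of all windows. Both strands were searched, for exact matches only, so sites with other letters were not counted. As the palindrome was in only 4 of all 33469 windows, its absence from 8 windows says little. These windows say nothing of sites farther from the start. GC content of the printed windows was 76.0% for Fkbp5, 69.6% for Sgk1, 68.8% for Dusp1 and 59.2% for Pdk4, against a median of 51.2% over all windows. The other Sgk1 windows, farther from the gene's end, had 39.2% and 49.6%.

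None of the 5 genes passed the test between CSD and control. The fitted differences of the receptor and its targets did not share a sign. The 95% intervals of Nr3c1, Sgk1 and Dusp1 reached in both directions, so their signs are not settled. Without control 3 the fitted log2 difference of Dusp1 was 0.26, and with scaling to library totals alone that of Sgk1 was -0.04. For Pdk4 and Fkbp5 all CSD libraries lay above all controls, with fitted differences of 1.38 and 0.37 on the log2 scale (CSD minus control). Sgk1 differed by 0.09, Dusp1 by -0.11 and Nr3c1 by -0.19, each with overlapping groups. The quasi-likelihood test of edgeR over 13431 genes gave adjusted p-values from 0.329 (Pdk4) to 0.875 (Dusp1). In that test 0 of all tested genes (0%) had an adjusted p under 0.05, and 0 of the 5. Before adjustment, 1679 genes (12.5%) had a p under 0.05, and DESeq2 called 298 genes after adjustment, none of the 5 among them. In bulk tissue, fewer cells that express a gene and less of its RNA per cell cannot be told apart.

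The receptor is taken first, as its level limits the response of a cell to hormone. Nr3c1 stood at 95.8, 109 and 94.7 CPM (reads per 1000000 gene reads, with library sizes scaled by TMM factors) in controls 1, 2 and 3 and at 99.5, 82.6 and 79.3 CPM in CSD 1, 2 and 3. CSD 2 and CSD 3 lay below all controls, while CSD 1 lay above controls 1 and 3. Group means (± SD, n = 3) were 99.7 ± 7.82 CPM for controls against 87.1 ± 10.9 CPM under CSD. The log2 difference was -0.19 (SE 0.13, 95% interval -0.49 to 0.11; edgeR, adjusted p = 0.551). Without CSD 1 the difference was -0.31 (edgeR, unadjusted p = 0.0320, adjusted p = 0.208). In that setting 2726 of 13714 tested genes had an unadjusted p under 0.05. The difference was -0.13 without control 2 and without CSD 3. The main fit's interval holds changes from 0.710-fold to 1.08-fold, so a loss of receptor RNA to below 0.710 of control lies outside it. That bound covers the main fit only. With scaling to library totals alone the difference was -0.32 (SE 0.14, edgeR unadjusted p = 0.0531, adjusted p = 0.342). Counts of 673 to 1026 reads per library gave a counting error of 3.47% at their mean. This was less than the spread of 7.84% in controls and 12.5% in CSD.

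Fkbp5, the feedback co-chaperone, had 144, 111 and 146 CPM in controls 1, 2 and 3 and 152, 170 and 195 CPM in CSD 1, 2 and 3. The groups did not overlap, but CSD 1 lay only just above controls 1 and 3, and control 2 stood low. Group means (± SD, n = 3) were 134 ± 19.4 CPM for controls against 172 ± 21.8 CPM under CSD. The fitted change was 1.29-fold (95% interval 1.01 to 1.64), or 0.37 on the log2 scale (SE 0.15). Its unadjusted p was 0.042 and its adjusted p 0.387 (edgeR), at rank 1458 among 13431 genes. The unadjusted p was 0.131 without control 2, 0.140 without CSD 3, 0.0881 without CSD 2 and 0.178 with scaling to library totals alone, where the log2 difference was 0.23. Of genes with a mean count within 1.5-fold of its own, 85.6% had a smaller difference in absolute size, as did 72.3% of all tested genes.

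Pdk4, the pyruvate dehydrogenase kinase, had few reads. There were 17, 18 and 10 reads in controls 1, 2 and 3 and 51, 18 and 41 reads in CSD 1, 2 and 3. Scaled, these are 1.91, 1.91 and 1.10 CPM in controls and 5.94, 2.06 and 4.83 CPM in CSD. CSD 1 and CSD 3 stood apart, whereas CSD 2 (95% Poisson interval 1.22 to 3.26 CPM) could not be told from control 1 (1.11 to 3.06 CPM) by counting error alone. Such intervals cover counting error only. Group means (± SD, n = 3) were 1.64 ± 0.469 CPM for controls against 4.28 ± 2.00 CPM under CSD, and the fitted change was 2.60-fold with a wide 95% interval of 1.24 to 5.46. The log2 difference of 1.38 (SE 0.47) was larger in absolute size than that of 97.8% of tested genes and of 94.8% of those with a like mean count. Its unadjusted p was 0.0178 and its adjusted p 0.329 (edgeR). Without CSD 1 the unadjusted p was 0.0752, without control 3 it was 0.0616 and without CSD 3 it was 0.0517.

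As background, Pdk4 is abundant in muscle and fat. The 92 genes with a fitted log2 difference above 3, chosen by that fold in these same libraries, took 2.29%, 1.21% and 0.413% of gene reads in CSD 1, 2 and 3 and 0.113%, 0.0497% and 0.00830% in controls 1, 2 and 3. CSD 1 was the highest library in both that share and Pdk4, and control 3 the lowest in both. The choice by fold fixed in advance that the share would be higher in CSD than in controls. CSD 3 had more Pdk4 than CSD 2 with a smaller share of those genes. The cell types behind these 92 genes were not analysed here, and their part in the Pdk4 level was not tested.

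Sgk1, the AKT-related kinase, varied least of the 5 within groups (pooled SD 0.12 on the log2 scale). It had 65.3, 81.7 and 74.6 CPM in controls 1, 2 and 3 and 81.0, 79.5 and 75.8 CPM in CSD 1, 2 and 3. Control 2 was the highest library and control 1 the lowest, and the CSD libraries lay between them. Group means (± SD, n = 3) were 73.9 ± 8.20 CPM for controls against 78.8 ± 2.65 CPM under CSD. The log2 difference was 0.09 (SE 0.12, 95% interval -0.19 to 0.37; edgeR, adjusted p = 0.776), and it was -0.04 with scaling to library totals alone, which moved the median of all genes to -0.13. It was 0.01 without control 1 and 0.17 without control 2. The interval reaches from 0.878-fold to 1.29-fold, so a doubling or a halving of Sgk1 lies outside it.

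Dusp1, the MAP kinase phosphatase, was set apart by 1 library. It had 51.6 and 50.4 CPM in controls 1 and 2 but 95.3 CPM in control 3, a range of 1.89-fold within the group. CSD 1, 2 and 3 had 71.7, 54.6 and 56.5 CPM. Each CSD library thus lay above controls 1 and 2 and below control 3. Group means (± SD, n = 3) were 65.8 ± 25.6 CPM for controls against 60.9 ± 9.34 CPM under CSD, with a log2 difference of -0.11 (SE 0.25, 95% interval -0.69 to 0.47; edgeR, adjusted p = 0.875). Without control 3 the difference was 0.26 (SE 0.17, adjusted p = 0.645), so the direction rests on that library. The spread of Dusp1 within groups was larger than that of 92.7% of genes with a like mean count, against 24.8% for Sgk1 and 39.3% for Nr3c1. For Fkbp5 and Pdk4 these shares were 65.7% and 72.5%.

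**Figure D1:**
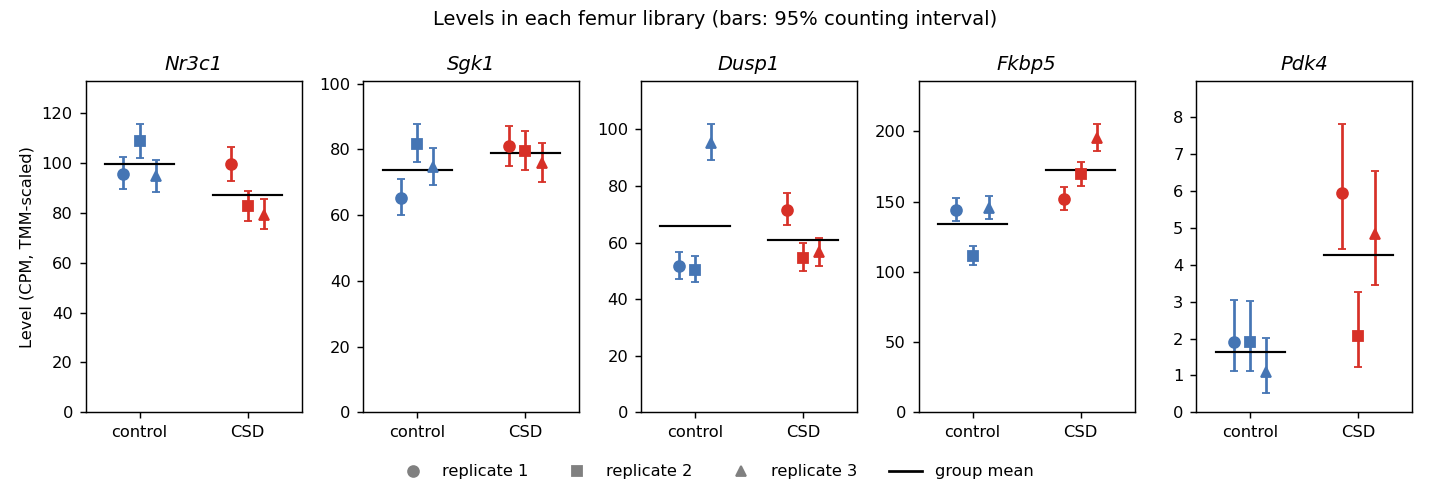
Level of each gene (y axis, CPM scaled with TMM factors, from 0) in the 3 control and 3 CSD libraries (x axis); points are libraries, whiskers the 95% Poisson counting interval and black lines group means. Fkbp5 and Pdk4 points of CSD lie above all controls, CSD 2 of Pdk4 only just, and control 3 of Dusp1 stands at 95.3 CPM.

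Over the 5 genes the median log2 difference was 0.09, and that of all tested genes was 0.00, with quartiles of -0.22 and 0.19. Pdk4 and Fkbp5, 2 of the 5, had an unadjusted p under 0.05 with a higher level in CSD, where 6.11% of tested genes did, and 0 of the 5 did with a lower level, where 6.39% did. The same 2 genes had all CSD libraries above all controls, a pattern found in 8.77% of tested genes, and 0 of the 5 had all CSD libraries below, found in 8.05%. With only 5 genes, chosen with earlier results of these data known, such counts carry little weight.

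**Figure D2:**
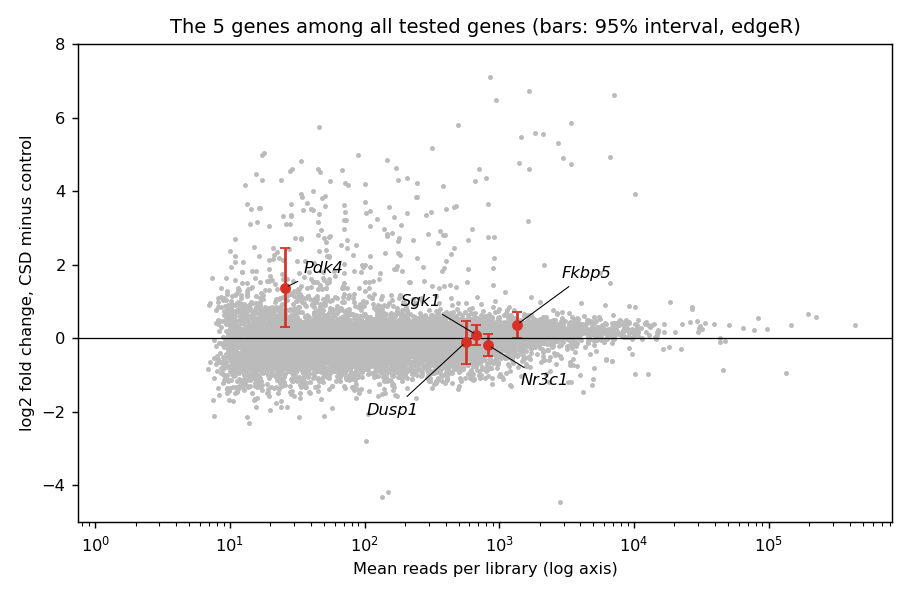
Fitted log2 difference between CSD and control (y axis) against mean reads per library (x axis, log scale) for the 13431 tested genes in grey, with the 5 genes in red and their 95% intervals from edgeR. Nr3c1, Sgk1 and Dusp1 sit within the dense band around 0, Fkbp5 at 0.37 near its upper edge, and Pdk4 at 1.38 among genes with few reads.

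The reads of each target were also set against those of the receptor in the same library, a ratio that needs no scaling between libraries. Sgk1 had 0.682, 0.752 and 0.788 reads per Nr3c1 read in controls 1, 2 and 3 and 0.814, 0.963 and 0.957 in CSD 1, 2 and 3. All CSD libraries lay above all controls, although neither gene alone separated the groups. The ratio also rises where Nr3c1 is lower, and the fitted log2 differences were 0.09 for Sgk1 and -0.19 for Nr3c1. The mean log2 ratio (± SD, n = 3) was -0.44 ± 0.11 for controls against -0.14 ± 0.14 under CSD, a difference of 0.30. The exact two-sided permutation test gave p = 0.1, the smallest that 3 against 3 libraries can give, and 0.2 after Benjamini-Hochberg adjustment over 4 ratios.

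For Pdk4 the log2 ratio to the receptor was higher by 1.47 in CSD, again with no overlap (exact permutation p = 0.1, adjusted 0.2). For Fkbp5 it was 0.59, 0.03 and 0.62 in controls 1, 2 and 3 and 0.61, 1.04 and 1.30 in CSD 1, 2 and 3. CSD 1 lay below control 3, and the difference of 0.57 gave an exact permutation p of 0.2 (adjusted 0.267). For Dusp1 the difference was 0.14 (exact permutation p = 0.7, adjusted 0.7), and control 3 stood highest, with a log2 ratio of 0.01. A ratio to Nr3c1 in which all CSD libraries lay above all controls was found for 2 of the 4 targets and for 13.6% of all tested genes, and the reverse for 0 of the 4 and 3.39%.

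**Figure D3:**
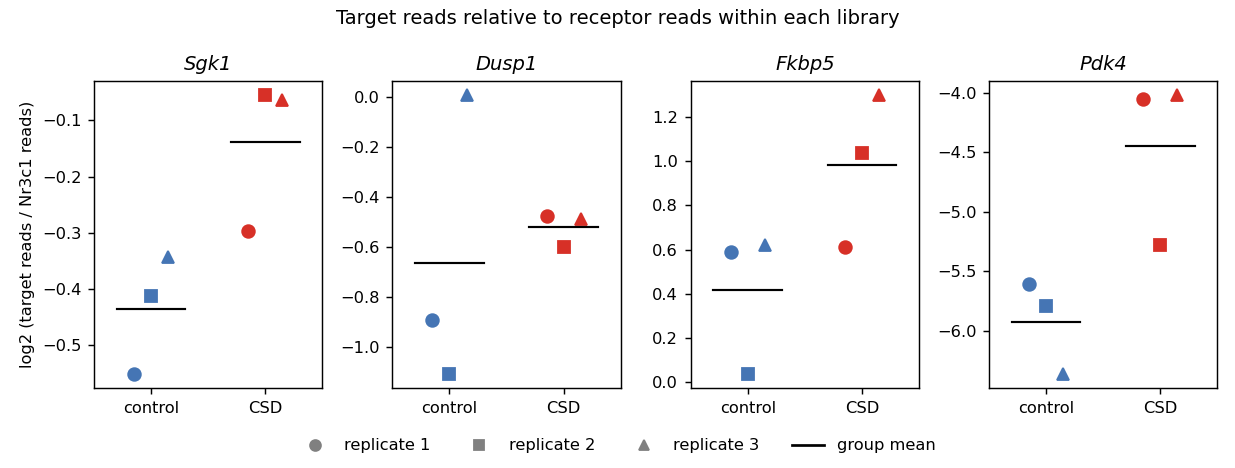
Log2 ratio of the reads of each target to Nr3c1 reads (y axis, a separate range in each panel) in control and CSD libraries (x axis); points are libraries and lines group means. The groups are apart for Sgk1 and Pdk4 and overlap for Fkbp5, through CSD 1, and for Dusp1.

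Across the 6 libraries Fkbp5 and Nr3c1 ran in nearly opposite order, with CSD 1 the exception. The libraries from the highest to the lowest Nr3c1 were control 2, CSD 1, control 1, control 3, CSD 2 and CSD 3, and Fkbp5 was lowest in control 2 and highest in CSD 3. Pearson's r of log2 CPM was -0.94 (exact permutation p = 0.00694; 0.0694 after adjustment over the 10 pairs of the 5 genes) and Spearman's rho was -0.83 (exact permutation p = 0.0583, adjusted 0.583). Neither adjusted value passed 0.05. The permutations took no account of group, so a difference between CSD and control enters these p-values. Without CSD 2 and CSD 3, the libraries farthest from the median of Nr3c1, r was -0.88. Over deviations from the group means r was -0.90, which was not tested. With scaling to library totals alone r was -0.73. An r with Nr3c1 at or below that of Fkbp5 was found for 281 of 13430 tested genes, or 2.09%.

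**Figure D4:**
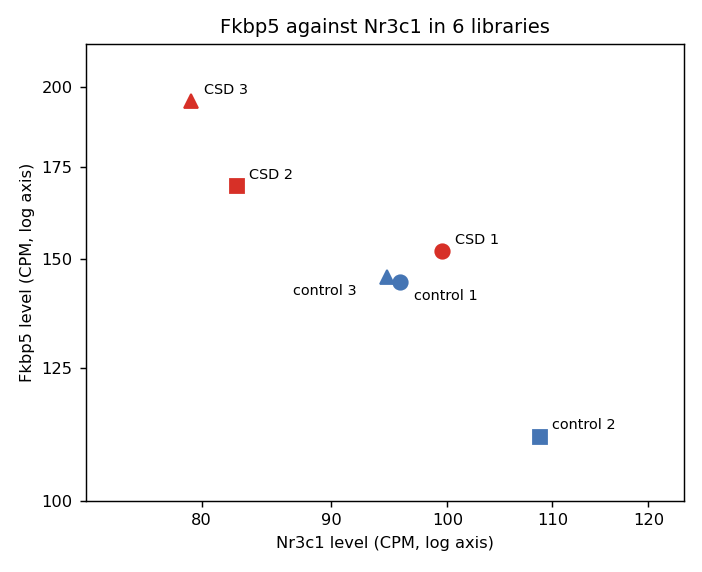
Fkbp5 level (y axis, CPM, log scale) against Nr3c1 level (x axis, CPM, log scale), one point per library, controls blue and CSD red. Fkbp5 is lowest where Nr3c1 is highest (control 2, 109 and 111 CPM) and highest where Nr3c1 is lowest (CSD 3, 79.3 and 195 CPM).

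For the other 9 pairs of the 5 genes r over all 6 libraries ran from -0.23 (Nr3c1 and Pdk4) to 0.47 (Fkbp5 and Pdk4), with adjusted exact permutation p-values of 0.936 each. Some of these pairs rested on which libraries were used. Without control 3 and CSD 1, the libraries farthest from the median of Dusp1, r was 0.96 for Dusp1 and Fkbp5 (0.08 over all 6) and 0.81 for Dusp1 and Pdk4 (-0.18 over all 6). Only controls 1 and 2 and CSD 2 and CSD 3 were then left, with Dusp1 from 50.4 to 56.5 CPM. Over deviations from the group means of all 6 libraries r was 0.21 for Dusp1 and Fkbp5 and -0.18 for Dusp1 and Pdk4. For Sgk1 and Fkbp5 the r over such deviations was -0.76 (-0.12 without centring). The targets differed in which library stood highest. It was control 2 for Sgk1, control 3 for Dusp1, CSD 3 for Fkbp5 and CSD 1 for Pdk4. Among all tested genes, 627 had an r above 0.9 with Nr3c1, 448 with Fkbp5, 75 with Sgk1, 66 with Pdk4 and 45 with Dusp1 over the 6 libraries. The gene most like Nr3c1 was ENSRNOG00000012424 (r = 0.999) and the gene most like Pdk4 was ENSRNOG00000025430 (r = 0.985). No name is paired with these IDs in the sources used here. With 6 libraries and 13430 genes compared, high values of r were found for each of the 5, so these likenesses are descriptions.

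**Figure D5:**
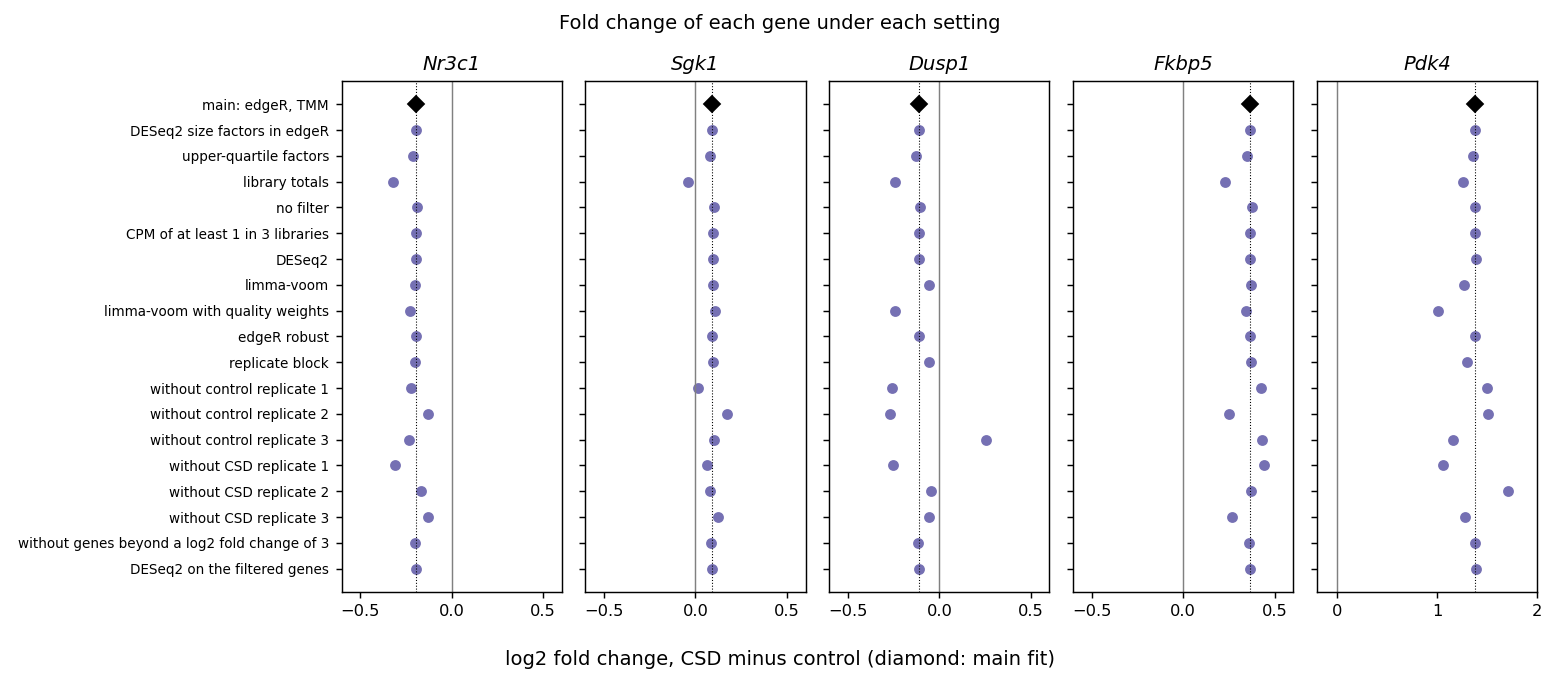
Log2 difference between CSD and control (x axis, a wider range for Pdk4) of each gene under the main fit (diamond) and 18 other settings (circles, y axis). Fkbp5 and Pdk4 stay above 0 and Nr3c1 below 0 in all of them, Sgk1 is below 0 with library totals, and Dusp1 is above 0 without control replicate 3.

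Across 18 other settings, Fkbp5 stayed above 0 with log2 differences from 0.23 to 0.44, and its unadjusted p was under 0.05 in 13 of them. Pdk4 stayed above 0 with 1.01 to 1.70 and had such a p in 14. Nr3c1 stayed below 0 with -0.32 to -0.13 and had such a p in 1. Of all tested genes, from 870 of 13776 (without CSD 2) to 2962 of 13431 (limma-voom with quality weights) had such a p. All settings draw on the same 6 libraries, so these counts are not independent repeats. None of the 5 genes had an adjusted p under 0.05 in any of the 18 settings, the lowest being 0.180 for Fkbp5 and 0.200 for Pdk4.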

How the data were processed

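Unnormalised read counts of 6 libraries were deposited by the authors as 1 table with a row per gene. The submitters' processing notes name HISAT2 (2.2.1), HTSeq (0.12.4) and rn6. What each tool did, the annotation release and whether strand was used in counting is not given in the sources used here, so reads of overlapping or antisense genes cannot be told apart. The 5 closing rows, which name no gene, held 61.8% to 63.8% of the reads and stayed out of library sizes and tests.

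Genes were filtered with filterByExpr of edgeR 4.0.16 at its defaults, which kept 13431 genes, all 5 described here among them. TMM factors were 0.912 to 1.07. The main test was edgeR's two-sided quasi-likelihood test of CSD against control over all kept genes, with Benjamini-Hochberg adjustment and a threshold of 0.05, and was tested on simulated data. SE is the absolute log2 difference divided by the square root of F, and 95% intervals use the t quantile at the fit's degrees of freedom. Correlations used log2 CPM with a prior count of 2. Ratios to Nr3c1 had 0.5 read added to each count. Alternatives used DESeq2 1.42.0 and limma 3.58.1 under R 4.3.3.

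The 5 genes, the motifs and the lists were chosen with earlier results of these data known. The rule for named genes took the 5 and, by ID, the gene most like Nr3c1 and the one most like the target with the smallest p. Lists of other receptor genes and of cell type markers were not tested, since 0 gene IDs could be matched to symbols. RefSeq windows are of GRCr8, not the build of the counts, and were matched by symbol for all 5 genes.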

Additional observations from a re-analysis of the deposited data

How the results depend on the processing

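The 0 genes at an adjusted p under 0.05 became 112 with no filter, 298 with DESeq2, 289 with DESeq2 on the filtered genes (chosen after the data were seen) and 104 with a replicate block (the number in the titles); none of the 5 genes was among them, and the cause was not tested. Deviations from the group means had r of -0.01, -0.06 and 0.17 for numbers 1, 2 and 3, and only those of number 3 matched each other best. With 3 libraries per group these values cannot show whether the numbers pair the libraries. With any 1 library left out the count was 0 to 230, the most without CSD 1 (230) and without control 1 (151). Library totals moved the median log2 difference of all genes to -0.13 and that of Sgk1 to -0.0381. Leaving out 1 library gave Dusp1 -0.27 to 0.26, above 0 only without control 3, and its ratio to Nr3c1 -0.0789 (without control 2) to 0.48. The correlation of Nr3c1 and Fkbp5 was -0.99 to -0.89 with 1 library left out. Pdk4, at 10 to 51 reads, had a counting error of 19.7% at the mean count of all 6 libraries. Its spread was 28.7% in controls and 46.7% in CSD. Controls had only 10 to 18 reads, so their own counting error is larger than 19.7%. Whether their spread exceeds it was not tested.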
